A study of Mus musculus with 4 samples.

Results

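Lysine methylation of histone tails is written by methyltransferases and removed by demethylases, and 49 genes of these families were followed here in mouse cells labelled T-helper 17. The 49 were all autosomal protein-coding genes whose symbols start with Kmt, Kdm, Setd, Nsd or Prdm, apart from Prdm1, out of 50600 gene rows and 20620 autosomal protein-coding genes in each table. They comprised 8 Kmt, 15 Kdm, 10 Setd, 3 Nsd and 13 Prdm genes. RNA-seq libraries were made from 4 biological replicates of primary cells of strain C57BL/6NJ, which form 1 group with no control, no treatment group and no second time point. Each replicate has its own biosample record, all 4 share 1 donor record, sex was not collected and the age is recorded as unknown, so the labels do not say which replicates came from separate animals, and spread between them may be partly technical. The labels link a protocol for differentiating CD4 T cells, while the names of the alignments counted include an hour label of 0.

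Most of these enzymes carry a catalytic SET domain if they write methyl groups, and either a JmjC domain or an amine oxidase domain if they erase them. Methylation of histone H3 at lysine 4 (H3K4) marks promoters and enhancers, methylation of lysine 36 (H3K36) marks transcribed gene bodies, and methylation of lysines 9 and 27 (H3K9, H3K27) and of histone H4 lysine 20 (H4K20) is found in repressed or compacted chromatin. PRDM proteins pair a SET-like PR domain with zinc fingers, and many act as DNA-binding regulators with no known enzyme activity. In CD4 T cells such marks are known to lie over cytokine and lineage factor genes and to change when naive cells are activated and polarised.

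Depth ranged from 29041979 to 48808978 counted fragments per library, and the 49 genes held 0.856% to 0.974% of them. CD4 T-cell markers were high, with Cd4 at 969 ± 34.2 TPM (transcript abundance per gene length within a library; ± SD, n = 4), and all 5 markers of naive or resting T cells passed 1 TPM, summing to 5426 to 5999 TPM. Of 10 Th17 markers only 4 reached 1 TPM in every library (Il17f, Il17a, Rora and Ahr), and the list summed to 16.4 to 28.1 TPM, so the labelled cell type was weakly marked. Of the CD8 markers Cd8b1 was at 42.9 ± 2.88 TPM and Cd8a at 0.150 ± 0.0772 TPM. No marker of B cells, NK cells or erythroid cells passed 1 TPM in every library, and of 4 monocyte and macrophage markers only Itgam did. The libraries also fell apart by relatives of the same families that lie on the sex chromosomes: the Y-linked demethylase gene Kdm5d had 6 and 4 counts in replicates 1 and 2 but 5159 and 5007 in replicates 3 and 4. The X-linked Kdm6a was at 66.5 and 66.9 TPM in replicates 1 and 2 and at 38.5 and 39.5 TPM in replicates 3 and 4. Cells of 1 animal would not give both patterns, so the 4 libraries did not all come from 1 animal. For this reason the genes the results turn on are given per library.

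Nearly the whole set was transcribed. At 1 TPM or more in every library stood 42 of the 49 genes, or 85.7%, against a background of 46.6% of all autosomal protein-coding genes. The median level was 51.7 TPM for the 49 and 0.496 TPM for all autosomal protein-coding genes, and among genes at level the medians were 61.8 and 34.5 TPM. A mean of 50 TPM or more was found for 25 of the 49 genes (51.0%, against 17.5% of all), and 7 genes passed 100 TPM (14.3%, against 8.23%). The genes below level were almost all of 1 family: 7 of 13 Prdm genes were at level, whereas 35 of the 36 others were. These are descriptions of a set defined by name, and no test was made of it.

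**Figure D1:**
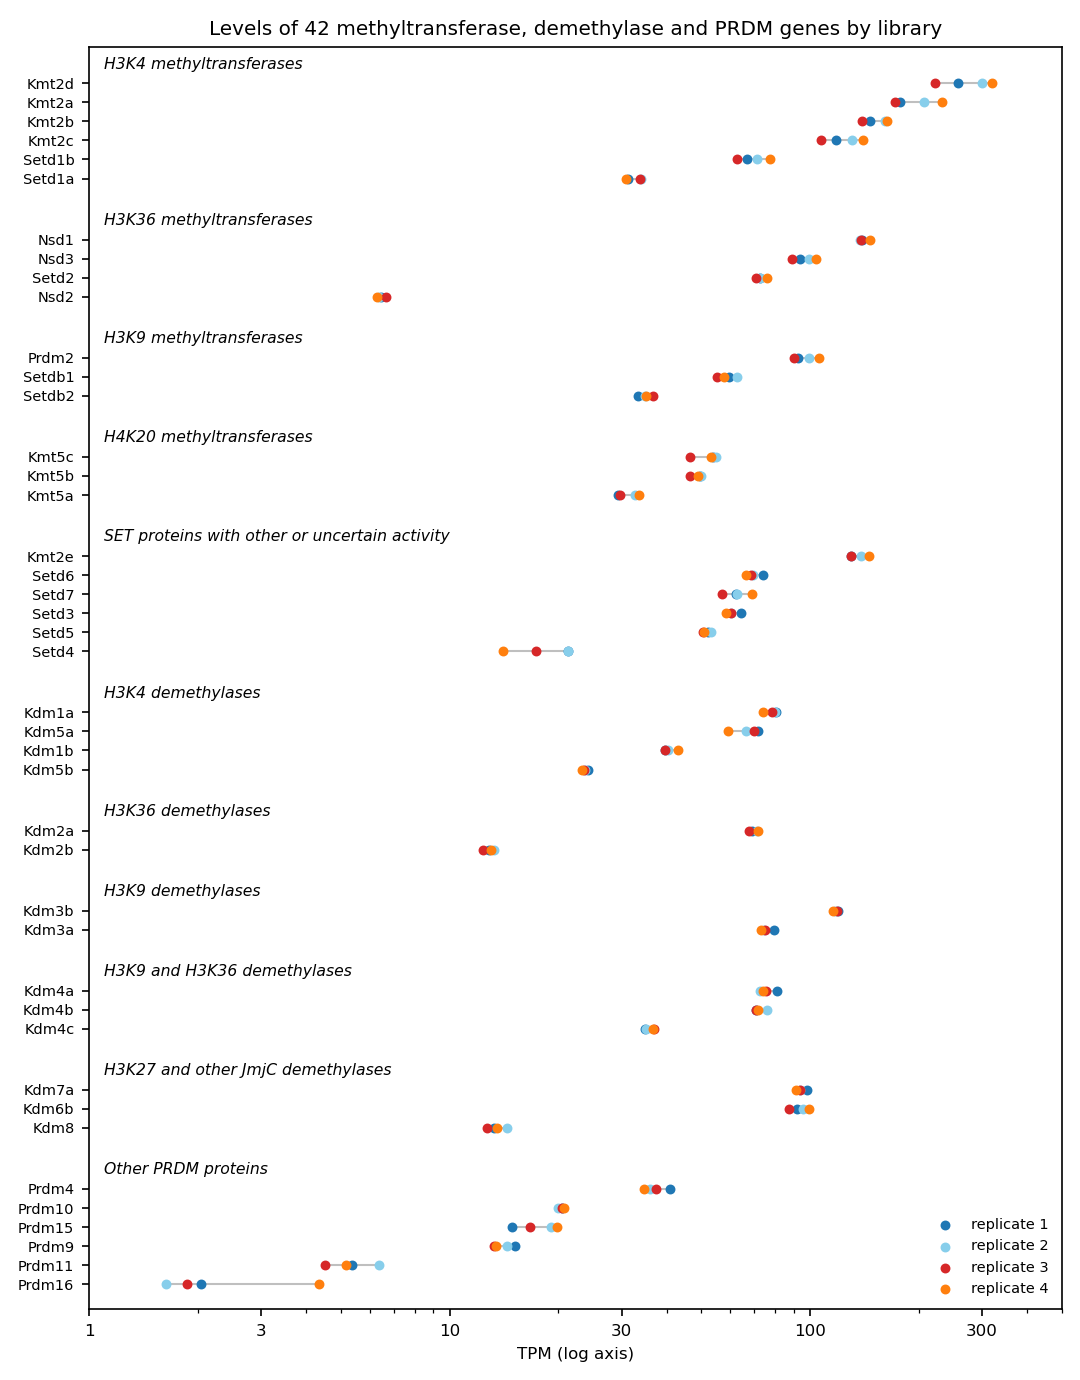
TPM (x axis, log scale) of the 42 genes at 1 TPM or more in every library, grouped by role, with a point for each of the 4 replicates and a grey line for their range. Kmt2d sits highest at 222 to 319.9 TPM, Nsd2 stands well below the other H3K36 methyltransferases at 6.30 to 6.65 TPM, and Prdm16 has its replicate 4 point far to the right of the others.

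Promoter sequence is shown for genes that frame this range. Among them are the highest methyltransferase gene, the highest autosomal H3K4 demethylase gene and the meiotic gene Prdm9. The others are Prdm16, the most variable of the 42 genes at level, and the silent genes Prdm13 and Prdm12. Each line gives the 250 bases upstream of a RefSeq transcript start (GRCm38.p6, the assembly of mm10 coordinates), 5′ to 3′ on the strand of the gene, with CG dinucleotides in capitals.

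Kmt2d promoter, chr15:98871206-98871455 (minus strand): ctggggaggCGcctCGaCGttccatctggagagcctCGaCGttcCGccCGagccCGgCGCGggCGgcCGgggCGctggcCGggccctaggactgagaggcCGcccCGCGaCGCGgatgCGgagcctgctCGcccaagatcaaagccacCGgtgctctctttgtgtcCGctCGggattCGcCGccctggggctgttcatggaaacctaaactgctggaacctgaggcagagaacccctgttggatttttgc

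Kdm1a promoter, chr4:136602724-136602973 (minus strand): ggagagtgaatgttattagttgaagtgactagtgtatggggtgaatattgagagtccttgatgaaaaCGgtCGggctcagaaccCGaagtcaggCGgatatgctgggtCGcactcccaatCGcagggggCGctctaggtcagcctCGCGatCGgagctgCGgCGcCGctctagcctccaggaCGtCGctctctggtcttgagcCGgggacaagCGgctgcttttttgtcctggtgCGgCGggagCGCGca

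Prdm9 promoter, chr17:15564355-15564604 (minus strand): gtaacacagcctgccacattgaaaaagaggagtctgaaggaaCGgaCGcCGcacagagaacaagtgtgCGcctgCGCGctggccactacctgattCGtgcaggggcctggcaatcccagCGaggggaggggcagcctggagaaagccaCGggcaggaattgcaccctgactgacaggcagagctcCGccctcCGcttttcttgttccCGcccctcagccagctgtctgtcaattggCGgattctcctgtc

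Prdm16 promoter, chr4:154636874-154637123 (minus strand): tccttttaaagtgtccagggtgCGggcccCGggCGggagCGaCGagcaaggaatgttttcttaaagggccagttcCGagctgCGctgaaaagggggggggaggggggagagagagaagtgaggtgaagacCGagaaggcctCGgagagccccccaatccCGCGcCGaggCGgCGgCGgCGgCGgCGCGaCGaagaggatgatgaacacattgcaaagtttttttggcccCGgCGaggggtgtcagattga

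Prdm13 promoter, chr4:21685964-21686213 (minus strand): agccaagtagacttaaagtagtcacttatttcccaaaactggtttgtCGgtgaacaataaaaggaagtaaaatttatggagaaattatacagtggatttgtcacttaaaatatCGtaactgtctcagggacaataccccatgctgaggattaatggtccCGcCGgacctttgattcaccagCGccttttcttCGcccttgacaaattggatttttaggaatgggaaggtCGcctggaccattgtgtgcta

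Prdm12 promoter, chr2:31639787-31640036 (plus strand): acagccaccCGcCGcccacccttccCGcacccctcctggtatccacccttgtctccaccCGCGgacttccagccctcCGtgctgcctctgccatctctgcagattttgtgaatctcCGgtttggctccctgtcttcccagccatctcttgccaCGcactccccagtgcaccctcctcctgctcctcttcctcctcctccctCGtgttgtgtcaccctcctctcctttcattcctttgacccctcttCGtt

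In these 250 bases the Kmt2d promoter held 26 CG dinucleotides, that of Kdm1a 21, Prdm16 22 and Prdm9 13. The silent genes had fewer, 7 for Prdm13 and 10 for Prdm12. A RefSeq promoter window of 300 bases (250 upstream and 50 downstream of the start) was found for 34 of the 49 genes. The 30 such genes at level held a median of 25 CG dinucleotides and a range of 0 to 65, against a median of 7 over all 32851 windows. The 4 genes under level (Kdm4d, Prdm12, Prdm13 and Prdm8) held 8 to 17, with a median of 14.5, so both groups were above the median window and their ranges overlapped. Of these 4, the window of Prdm8 lies 13671 bases from the annotated gene start. In the window of Kdm4d, 116 of the 250 upstream bases are exon of the neighbouring gene Cwc15. Some windows of genes at level also overlap exons of a neighbour, such as that of Kdm1b with Tpmt. Kdm7a had the richest window, with 65, and 0.00913% of all windows hold as many. The window of Kdm4c held 0 CG dinucleotides at a level of 35.9 TPM, and that of Setd5, which lies 27570 bases from the start of the gene as annotated in the count tables, held 1.

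Of short motifs searched on both strands, GGGCGGG, a core bound by SP and KLF factors, occurred in 14 of the 30 windows of genes at level (46.7%), in 0 of the 4 under level, and in 25.6% of all windows. Among the promoters printed above only Prdm9 and Prdm16 have it in their window. The ETS core CCGGAAG was in 6 of the 30, in 1 of the 4 (Kdm4d) and in 8.86% of all windows, and the YY1 core ATGGCGG was in 1 of the 30 (Setd6) and in 4.05% of all windows. These 3 patterns can share end bases where they lie side by side, and a match only says that the letters are present.

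**Figure D2:**
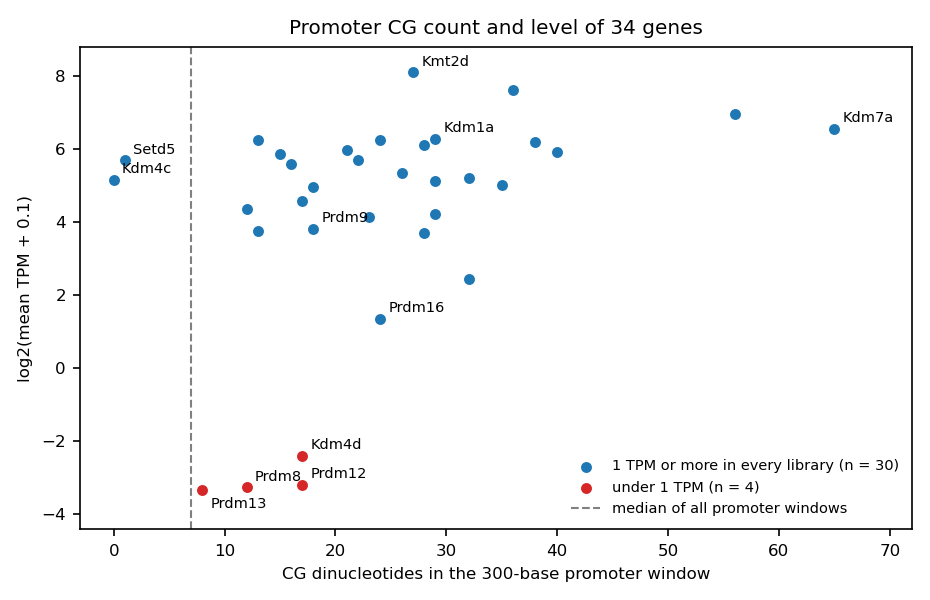
Number of CG dinucleotides in the 300-base promoter window (x axis) and log2(mean TPM + 0.1) over 4 libraries (y axis) for the 34 genes with a window, blue at 1 TPM or more in every library and red under it. All but Kdm4c and Setd5 lie to the right of the dashed line at 7, the median of all windows.

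The H3K4 methyltransferases held the top of the set. Kmt2d (MLL4; ENSMUSG00000048154, mm10 chr15:98831669-98871204, minus strand), which places monomethyl H3K4 at enhancers, was at 258, 300.4, 222 and 319.9 TPM in replicates 1 to 4, a mean of 275 ± 43.7 (SD, n = 4). Replicate 4 was the highest library and replicate 3 the lowest. Kmt2c, its closest relative and enhancer partner, was at 118, 130.5, 107 and 141 TPM, with the same order of libraries. The log2 ratio of Kmt2c to Kmt2d was -1.14 ± 0.07, below 0 in 4 of 4 libraries, and its mean stands for a 2.21-fold higher level of Kmt2d (exact two-sided sign-flip permutation test, p = 0.125, adjusted over 12 pairs 0.136). With 4 libraries 0.125 is the smallest p this test can give, so none of the pairs below can pass 0.05.

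Kmt2a (MLL1; ENSMUSG00000002028, mm10 chr9:44803355-44881296, minus strand), which keeps HOX and other lineage genes active, was at 178, 207, 172 and 232 TPM, a mean of 197 ± 27.8. Kmt2b, which trimethylates H3K4 at CpG island promoters, was at 147, 162, 139 and 163 TPM, a mean of 153 ± 11.7. Kmt2a was above Kmt2b in 4 of 4 libraries, by a log2 ratio of 0.36 ± 0.10, which was 1.16 without length correction. The ranges of Kmt2d and Kmt2a overlapped across libraries, since Kmt2a in replicate 4 passed Kmt2d in replicate 3, but within each library Kmt2d was higher.

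Setd1a and Setd1b are the catalytic subunits of the SET1 COMPASS complexes, which place most trimethyl H3K4 at promoters. Setd1b was at 67.0, 71.3, 62.6 and 77.6 TPM, again lowest in replicate 3 and highest in replicate 4. Setd1a was at 31.2, 33.9, 33.8 and 30.8 TPM, with replicate 4 the lowest. The log2 ratio of Setd1a to Setd1b was -1.10 ± 0.18, below 0 in 4 of 4 libraries, and -1.93 without length correction. The 2 levels are not measured alike. 3523 of the 6795 exon bases of Setd1a (51.8%) are shared on the same strand with Gm49388, a gene of readthrough transcripts listed with 5 counts in all, and no option on the command line counts fragments that fall on 2 genes. The level of Setd1a is therefore an underestimate by an unknown amount, and the direction of this pair cannot be read as one of expression.

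Partners of these complexes were present throughout. Of 11 COMPASS and MLL complex genes, 10 reached 1 TPM in every library, against 46.6% of all autosomal protein-coding genes. The median was 70.5 TPM over the 11. The highest were Cxxc1, the CpG-binding subunit of SET1 complexes, at 227 ± 9.35 TPM and Wdr82, a subunit that joins them to RNA polymerase II, at 133 ± 4.75 TPM. Pagr1a, a subunit of the Kmt2c and Kmt2d complexes, had 13 counts over the 4 libraries. None of the 10 tested had excess spread between libraries at an adjusted p under 0.05 or an unadjusted p under 0.05 in the edgeR test described further on. Over all genes tested these shares were 0.193% and 5.34%, so 0 of 10 is close to them.

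Among the H3K36 methyltransferases the 3 NSD genes differed most. Nsd1, which places dimethyl H3K36, was at 139.6, 138, 138 and 147 TPM, a mean of 141 ± 4.29. Its coefficient of variation (SD over mean) was 3.05%, and among the 7 genes above 100 TPM only Kdm3b varied less. Nsd3 was at 93.7, 99.3, 89.2 and 104 TPM, a mean of 96.5 ± 6.28. Nsd2, a dimethyl H3K36 enzyme whose human counterpart is lost in Wolf-Hirschhorn syndrome, was at 6.46, 6.38, 6.65 and 6.30 TPM, a mean of 6.45 ± 0.149.

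The log2 ratio of Nsd1 to Nsd2 was 4.43 ± 0.07, above 0 in 4 of 4 libraries, a 21.5-fold difference in level per length and the widest of the 12 pairs compared. The deposited exon length of Nsd2, 16803 bases, is the union over all its transcripts, which lowers its TPM if short forms prevail. Without any length correction the log2 ratio was 4.05. Nsd1 was also above Nsd3 in 4 of 4 libraries, by a log2 ratio of 0.55 ± 0.07. This fell to 0.18 without length correction, with deposited exon lengths of 12784 bases for Nsd1 and 16513 for Nsd3. Setd2, the main enzyme for trimethyl H3K36, was at 72.9 ± 2.11 TPM.

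Of the 3 H3K9 methyltransferase genes selected by name, Prdm2 (RIZ1) was highest, at 92.3, 99.3, 90.5 and 106 TPM, a mean of 97.1 ± 7.15. Setdb1, which represses endogenous retroviruses together with KRAB zinc finger proteins, was at 59.8, 62.6, 55.3 and 57.8 TPM. Setdb2 was at 33.4, 34.8, 36.6 and 35.0 TPM. Setdb1 exceeded Setdb2 in 4 of 4 libraries by a log2 ratio of 0.75 ± 0.12, and the ranges of the pair did not overlap. Without length correction this ratio was 1.51.

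The H4K20 methyltransferases were close together. Kmt5b and Kmt5c, which make the di- and trimethyl forms, were at 49.6, 49.7, 46.6 and 49.0 TPM and at 54.0, 54.8, 46.4 and 53.1 TPM. Kmt5c was higher in 3 of 4 libraries, with a log2 ratio of Kmt5b to Kmt5c of -0.09 ± 0.07 (exact sign-flip permutation test, p = 0.25). The pair therefore had no fixed order, and without length correction the ratio turned to 1.72, since Kmt5b has 14116 exon bases and Kmt5c 4001. Kmt5a, the monomethyl H4K20 enzyme of dividing cells, was at 31.3 ± 2.18 TPM.

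The remaining SET genes encode proteins whose substrates lie outside histones or are uncertain. Kmt2e (MLL5), a PHD and SET protein for which no H3K4 methyltransferase activity is established, was at 129.8, 138, 129.7 and 145 TPM, a mean of 136 ± 7.60. Setd6, which methylates the NF-κB subunit RelA, was at 74.0, 69.4, 68.5 and 66.4 TPM. Setd7, which monomethylates H3K4 in vitro and many other proteins, was at 62.8 ± 5.06 TPM, and Setd3, the actin histidine methyltransferase, at 60.8 ± 2.39 TPM. Setd5 was at 52.2, 53.0, 50.6 and 50.9 TPM and had the largest spread p of the 42 genes (0.994). Setd4 was at 21.4 and 21.3 TPM in replicates 1 and 2 and at 17.3 and 14.1 TPM in replicates 3 and 4. Its order followed the division of the libraries by Kdm5d, but this was not particular to Setd4. Setd5, Setd6, Kdm1a, Kdm5b and Prdm9, among others, also had replicates 1 and 2 above replicates 3 and 4. The part of the division by Kdm5d in the level of Setd4 was not tested.

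Lysine methyltransferases that bear other names were read as context. Of 13 such genes, 11 reached 1 TPM in every library (46.6% of all autosomal protein-coding genes did), with a median of 17.1 TPM. The H3K9 dimethyl enzyme Ehmt2 (G9a) was highest at 121 ± 3.88 TPM, followed by the H3K79 enzyme Dot1l at 67.6 ± 5.95 TPM. Below level were the muscle gene Smyd1, with 6 counts, and Mecom, with 0. None of the 11 tested had excess spread at an adjusted p under 0.05 and 1 had an unadjusted p under 0.05, against 0.193% and 5.34% of all genes tested.

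All 4 autosomal H3K4 demethylase genes were at level. Kdm1a (LSD1), the amine oxidase that removes mono- and dimethyl H3K4 within the CoREST complex, was at 80.6, 79.7, 78.2 and 74.1 TPM. Kdm1b (LSD2), its relative, was at 39.5, 40.4, 39.7 and 43.0 TPM. Kdm1a exceeded Kdm1b by a log2 ratio of 0.94 ± 0.11 in 4 of 4 libraries. The CoREST partners of Kdm1a all reached level (8 of 8, against 46.6% of all autosomal protein-coding genes), with a median of 55.0 TPM. They were led by the deacetylase gene Hdac1 at 118 ± 2.05 TPM and the scaffold gene Rcor1 at 87.4 ± 3.06 TPM. Of the 8, 0 had an unadjusted spread p under 0.05, against 5.34% of all genes tested.

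Kdm5a, a JmjC enzyme that erases trimethyl H3K4, was at 71.6, 66.4, 69.8 and 59.4 TPM. Kdm5b was at 24.2, 23.8, 23.6 and 23.3 TPM, and its coefficient of variation of 1.51% was the smallest of the 42 genes and close to the 1.50% that counting alone gives at its depth. Kdm5a exceeded Kdm5b by a log2 ratio of 1.49 ± 0.10 in 4 of 4 libraries, a 2.80-fold difference. The X-linked member of this family, Kdm5c, which the selection leaves out, was at 128, 149, 88.7 and 105 TPM, so within each library it was above Kdm5a.

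The H3K36 demethylases showed the tightest ratio. Kdm2a, a CpG-binding JmjC protein, was at 69.0, 71.0, 67.7 and 71.6 TPM. Kdm2b, which recruits a variant Polycomb complex to CpG islands, was at 12.9, 13.3, 12.4 and 13.1 TPM. The log2 ratio of Kdm2a to Kdm2b was 2.43 ± 0.02, above 0 in 4 of 4 libraries, a 5.37-fold difference with the smallest SD of the 12 pairs. Kdm2b shares 124 of its 10869 exon bases on the same strand with Gm44574, which had 0 counts.

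Kdm3b and Kdm3a erase mono- and dimethyl H3K9. Kdm3b was the highest of the 15 Kdm genes selected, at 119.9, 117, 119 and 116 TPM, a mean of 118 ± 1.86 TPM, and its spread p of 0.929 was among the 3 largest. Kdm3a was at 79.4, 74.5, 75.2 and 73.0 TPM. Between Kdm3a and Kdm3b the log2 ratio was -0.64 ± 0.03, below 0 in 4 of 4 libraries.

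Of the Kdm4 enzymes, Kdm4a, Kdm4b and Kdm4c erase trimethyl H3K9 and H3K36. Kdm4a was at 80.9, 72.9, 75.5 and 74.2 TPM and Kdm4b at 70.8, 75.8, 70.6 and 71.8 TPM, so their order changed between libraries. Kdm4c was at 34.9, 35.0, 37.0 and 36.6 TPM, and Kdm4a exceeded it in 4 of 4 libraries by a log2 ratio of 1.08 ± 0.09. Kdm4d, a germline member, had 12 counts over the 4 libraries and was the only autosomal Kdm gene below 1 TPM in every library.

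Among the other JmjC genes, Kdm7a, which erases dimethyl H3K9 and H3K27, was at 98.1, 93.7, 94.0 and 91.7 TPM. Kdm6b (JMJD3), the inducible trimethyl H3K27 demethylase of immune cells, was at 92.3, 95.7, 87.3 and 99.4 TPM. Both were well above Kdm8 (JMJD5), a JmjC protein of debated activity, at 13.5 ± 0.726 TPM. Of 6 JmjC and PHF genes with other names, 5 reached level, against 46.6% of all autosomal protein-coding genes. They were led by the H3K9 demethylase gene Phf2 at 125 ± 3.64 TPM and Jmjd6 at 54.7 ± 9.15 TPM. The sixth, Hr, had 37 counts. Of the 5 tested for spread, 1 had an unadjusted p under 0.05 and 0 had an adjusted one, against 5.34% and 0.193% of all genes tested.

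**Figure D3:**
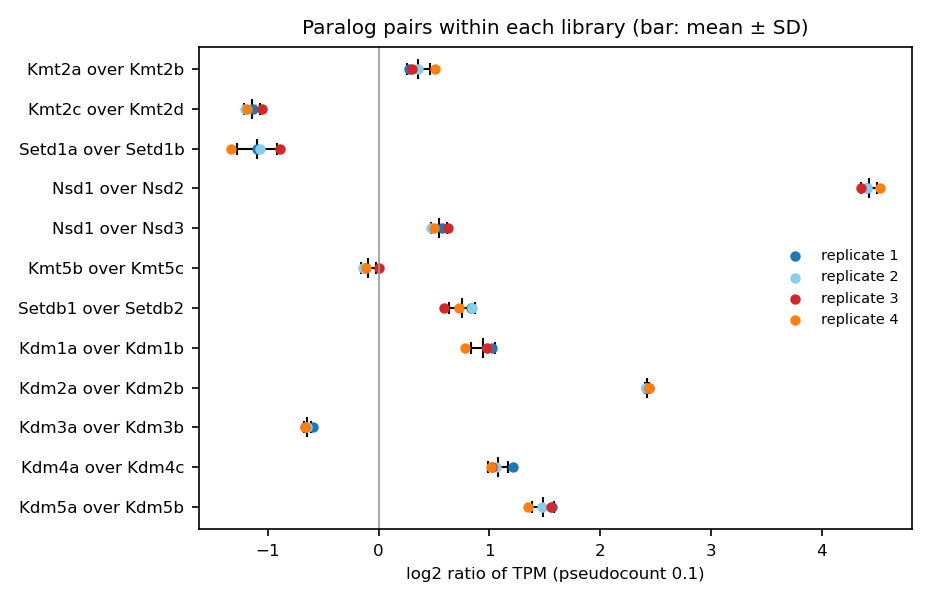
Log2 ratio of TPM (x axis, pseudocount 0.1) within each library for the 12 pairs of related genes, with a point per replicate and a bar for mean ± SD (n = 4). Nsd1 over Nsd2 lies farthest from 0 at 4.43, and Kmt5b over Kmt5c is the only pair whose points fall on both sides of 0.

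Summed over members, methyltransferases and demethylases of a residue stood in different proportions. For H3K4 the 6 methyltransferases summed to 799, 905, 737 and 964 TPM and the 4 demethylases to 216, 210.4, 211 and 199.8 TPM, a ratio of 3.70, 4.30, 3.49 and 4.82. The mean was 4.08 ± 0.604, with replicate 4 highest and replicate 3 lowest, and it was 7.15 without length correction. For H3K36 the 4 methyltransferases over Kdm2a and Kdm2b gave 3.81, 3.75, 3.81 and 3.93, a mean of 3.83 ± 0.0754. For H3K9, Setdb1, Setdb2 and Prdm2 over Kdm3a and Kdm3b gave 0.931, 1.03, 0.939 and 1.05, a mean of 0.988 ± 0.0621. These sums cover only genes with the names selected, leave out Ehmt2 and Kdm5c among others, and say nothing of enzyme activity. They also leave out the 4 Kdm4 genes, which were selected and summed to 184 ± 1.76 TPM. Also selected but left out were Kdm7a, at 94.4 ± 2.67 TPM, and Prdm9, at 14.1 ± 0.889 TPM. Kdm2a and Kdm2b summed to 82.7 ± 2.15 TPM, and Kdm3a and Kdm3b to 193 ± 4.45 TPM. The H3K36 and H3K9 ratios would therefore be lower with the Kdm4 genes counted. Counting Kdm7a would also lower the H3K9 ratio, and counting Prdm9 would raise the H3K4 and H3K36 ratios.

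The PRDM genes were the part with both silent and expressed members. Prdm4, which recruits the arginine methyltransferase Prmt5, was at 40.9, 36.04, 37.5 and 34.6 TPM, and Prdm10, a zinc finger regulator, at 20.6, 19.98, 20.5 and 20.8 TPM. Prdm15, a zinc finger regulator of embryonic signalling genes, was at 14.9, 19.1, 16.7 and 19.8 TPM. Prdm11 was at 5.35 ± 0.760 TPM. Below level were Prdm14 with 4 counts over the 4 libraries, and Prdm12 and Prdm8 with 1 each. Prdm13 and Prdm6 had 0 counts, which allows up to 0.0841 and 0.124 TPM in the shallowest library at 3 counts. Prdm14 is known from germ cells and pluripotent cells, and Prdm8, Prdm12 and Prdm13 from the nervous system.

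Prdm9 was among the expressed members. Prdm9 (ENSMUSG00000051977, mm10 chr17:15543079-15564354, minus strand) encodes the H3K4 and H3K36 methyltransferase that marks meiotic recombination hotspots and is best known from germ cells. It had 546, 617, 816 and 749 counts, or 15.2, 14.4, 13.3 and 13.4 TPM, a mean of 14.1 ± 0.889, and the libraries lay close together. That level was at percentile 65.5 of autosomal protein-coding genes. The count is of all its exons together, so whether the fragments came from full-length transcripts was not tested.

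Prdm16, a regulator of brown fat and of blood stem cells (ENSMUSG00000039410, mm10 chr4:154316125-154636873, minus strand), was the only member with a library far from the rest. It had 159, 151, 248 and 522 counts, or 2.05, 1.63, 1.87 and 4.33 TPM in replicates 1 to 4. Replicates 1 to 3 lay together and replicate 4 was 2.66-fold above the lowest. The mean was 2.47 ± 1.25 TPM with all 4 libraries and 1.85 TPM without replicate 4.

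The design holds 1 group, so the test it allows across genes is of spread between libraries. In edgeR, the quasi-dispersion of each gene was tested against the trend of all 12464 genes past the count filter, with Benjamini-Hochberg adjustment over all of them. At an adjusted p under 0.05 this called 0 of the 42 members tested, and 24 genes in all (0.193%). At an unadjusted p under 0.05 it picked 6 of the 42 (14.3%), against 5.34% of all genes. The 6 were Prdm16 (unadjusted p = 0.00198, adjusted 0.282), Kmt2d (0.00844, adjusted 0.539), Kmt2a (0.0157, adjusted 0.676), Setd4 (0.0252, adjusted 0.797), Prdm15 (0.0301, adjusted 0.845) and Kmt2c (0.0400, adjusted 0.901). DESeq2 marked 1 of the 42 as a dispersion outlier, Prdm16, and 113 genes in all. With no filter on low counts, edgeR tested 47 members and 21421 genes. It called 3 of the 47 (Kmt2a, Kmt2d and Prdm16) and 349 genes in all. Over all genes the edgeR count was 30, 13, 7 and 86 without replicates 1, 2, 3 and 4, and it was 0 for the members each time.

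Most of the set varied little. The median coefficient of variation of the 42 members was 5.15%, in a range of 1.51% to 50.7%, against 6.64% for all autosomal protein-coding genes at level. Median levels were 61.8 TPM in the members and 34.5 TPM in that background, which was not matched for level or length. The largest spread p values were those of Setd5, Kdm5b (0.991) and Kdm3b. Kmt2d and Kmt2a, at 15.9% and 14.1%, were far above the 0.402% and 0.517% that counting alone gives at their depth. Nsd1 and Kmt2e, at 3.05% and 5.60%, were also above their 0.699% and 0.787%. With the count filter, neither Kmt2d nor Kmt2a had an adjusted edgeR spread p under 0.05.

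**Figure D4:**
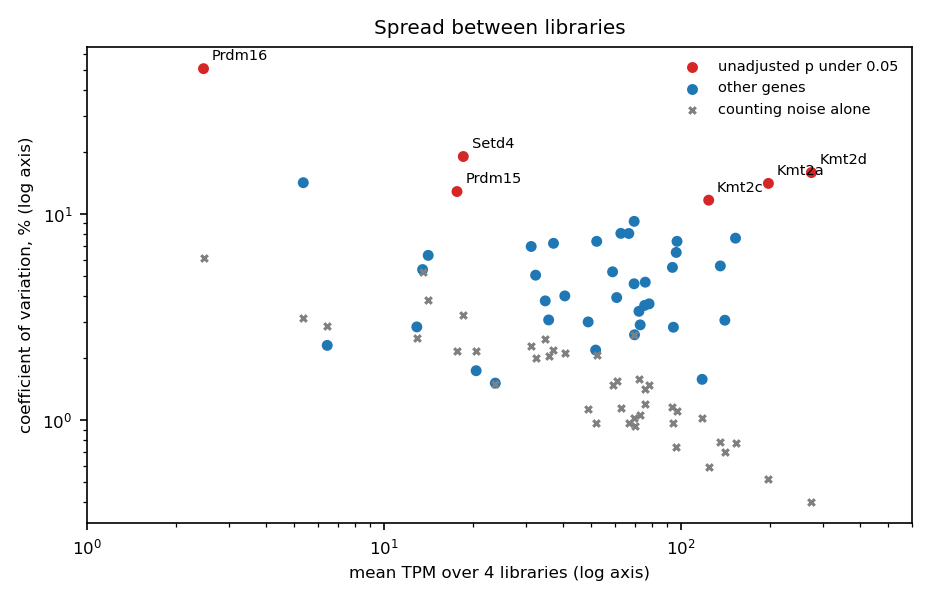
Coefficient of variation over the 4 libraries (y axis, log scale) against mean TPM (x axis, log scale) for the 42 members at level, red where the unadjusted edgeR spread p is under 0.05, with grey crosses for counting noise alone. Prdm16 tops the plot at 50.7%, and Kmt2d, Kmt2a and Kmt2c lie at 11.7% to 15.9%, well above their crosses.

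The direction of the spread was shared by 5 of the 6 H3K4 methyltransferases. Taking each gene's log2(TPM + 0.1) minus its own mean over the 4 libraries, the median of the 6 was -0.06, 0.08, -0.17 and 0.17 in replicates 1 to 4, against 0.03, 0.02, -0.02 and -0.02 for all 12464 genes. Of the 6, 5 were lowest in replicate 3 and 5 were highest in replicate 4, Setd1a being the exception in both. Kmt2d spanned the most, from -0.29 in replicate 3 to 0.23 in replicate 4. The 4 H3K4 demethylases had medians of 0.04, 0.00, 0.00 and -0.05. Of these, 3 of the 4 (Kdm1a, Kdm5a and Kdm5b) were highest in replicate 1 and lowest in replicate 4, with Kdm1b the exception. Those were also the commonest places over all 12464 genes, with 33.3% highest in replicate 1 and 35.7% lowest in replicate 4. The orders of the methyltransferases and of the demethylases both raise the summed H3K4 ratio in replicate 4.

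Over all 42 members, 21 (50%) were lowest in replicate 3, against 30.8% of the 10371 autosomal protein-coding genes tested, and 18 (42.9%) were highest in replicate 4, against 24.5%. Gene length moved the same way in these libraries. The members are long, with a median of 9290 exon bases against 4242 over the genes tested, and among the 1038 genes with the longest exons 43.6% were lowest in replicate 3 and 34.2% highest in replicate 4. The median deviation of those long genes was -0.04 in replicate 3 and 0.01 in replicate 4. It was -0.05 and 0.01 for the 42 members, and -0.17 and 0.17 for the 6 H3K4 methyltransferases. Median GC content was 49.7% in the members and 50.2% in the genes tested. Of the H3K4 methyltransferases, Kmt2d, Kmt2b, Setd1b and Setd1a were richer in GC, at 58.4%, 59.1%, 59.0% and 57.0%. Kmt2a was at 50.6% and Kmt2c at 47.6%. Among the 1036 genes tested with the highest transcript GC, 28.9% were lowest in replicate 3 and 23.6% highest in replicate 4. Their median deviation was -0.02 in replicate 3 and -0.01 in replicate 4. The part of gene length or GC content in the pattern of the H3K4 methyltransferases was not tested.

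**Figure D5:**
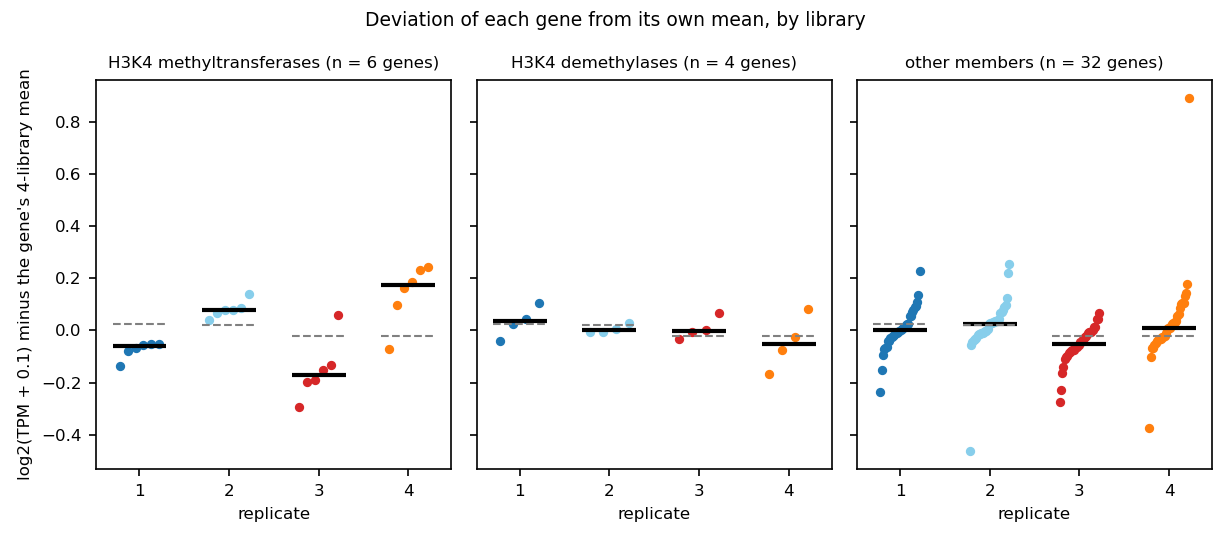
Log2(TPM + 0.1) of each gene minus its own mean over 4 libraries (y axis) by replicate (x axis), for the 6 H3K4 methyltransferases, the 4 H3K4 demethylases and the 32 other members at level, with solid bars for group medians and dashed bars for the median of all 12464 genes tested. The methyltransferases sit below 0 in replicate 3 and above it in replicate 4, apart from Setd1a, and the demethylases stay between -0.17 and 0.10.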

How the data were processed

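The deposited values are fragment counts per gene, 1 table per library. Per the file headers, the authors used featureCounts 1.4.6-p4 with GENCODE M13 exons on mm10, counting pairs with both ends mapped and the reverse-strand setting. Reads were aligned by a program whose version was not given in the sources used here. Per the labels the assay is total RNA-seq, yet the library protocol they link has poly(A)+ in its title. Total counts were 29041979, 35018552, 48808978 and 45490373 in replicates 1 to 4. Gene symbols were taken from GENCODE M21 and matched 50376 of 50600 rows. TPM was computed from the counts and the deposited exon length.

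The members, gene lists and named genes were chosen with earlier results of these data known. Every member is named apart from 1 that is not reported here, and values in every library are given for the 2 highest genes of each role, all genes of the 12 pairs, and the 3 smallest and 3 largest spread p values. Two-sided exact sign-flip permutation tests were used for pairs. Spread was tested with edgeR 4.0.16 (intercept-only design, TMM, filterByExpr, robust) in R 4.3.3, and the script was tested on simulated data. DESeq2 1.42.0 served as an alternative, beside other filters, scalings and pseudocounts and leaving out each replicate. Python 3.11.15, numpy 2.4.6, pandas 2.3.3 and scipy 1.17.1 did the rest. Counts differed between all pairs of libraries by more than sampling noise. Limits from 3 counts cover counting error only. Promoters were found for 34 members, and 15 had no entry. Protein sequences were not used here.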

Additional observations from a re-analysis of the deposited data

Results flagged for a closer look

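Among the 42 genes at 1 TPM or more in every library, 1 had a library far from the other 3 by Dixon's ratio: Prdm16 was at 4.33 TPM in replicate 4, against 2.05, 1.63 and 1.87 TPM in replicates 1 to 3. The gap to the nearest library was 0.846 of the range of the 4, above the critical value at the 95% level. Chance flags about 1 in 20 groups of this size, and 42 genes were looked at.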

How the results depend on the processing

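The count of 42 members at level was 42 under the coding-gene TPM total, under 1 CPM and without each replicate, and 40 at 5 TPM. Members with excess spread numbered 1 of 42 by DESeq2 and 3 of 47 in edgeR with no low-count filter, against 0 of 42 in the main edgeR fit. All genes with excess spread, 24 of 12464 in edgeR, numbered 113 by DESeq2 and 5 without the robust fit among the same 12464. They numbered 349 of 21421 with no filter, 10 of 9309 at a mean CPM of 5 or more and 6 of 10705 nuclear coding genes. With 1 replicate left out they numbered 7 to 86. The cause was not tested. Of 72 pair ratios under alternatives, 71 kept their direction, and their adjusted p ran from 0.125 to 0.5. Without length correction Kmt5b over Kmt5c reversed from -0.09 to 1.72, the summed H3K4 ratio moved from 4.08 to 7.15 and the H3K9 ratio from 0.988 to 0.868. With 1 replicate left out these summed ratios ran from 3.83 to 4.27 for H3K4, 3.79 to 3.85 for H3K36 and 0.966 to 1.01 for H3K9. No paired comparison of groups was possible because all 4 libraries form 1 group. With 4 libraries, no pair of genes could pass 0.05 in the sign-flip test, and depth limits the silent genes to the bounds given.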
